A study of Homo sapiens with 12 samples.

Results

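The mRNAs of the large subunit of the cytosolic ribosome were followed through EIF3G knockdown and polysome isolation in H1299, an established human non-small-cell lung cancer line. The members were taken by name: 45 genes for cytosolic large subunit proteins (RPL3 to RPL41, RPLP0, RPLP1 and RPLP2), out of 16172 genes in the deposited table. All 45 were among the 10605 genes that passed the filter of a mean of at least 1 TPM (transcripts per 1000000 transcripts, a unit corrected for transcript length). Cells received either siEIF3G, an equal mix of 2 siRNAs against EIF3G, or the control siRNA siCtrl, and were lysed after 72 h. Of the lysate, 10% was kept as input RNA, and polysomal RNA was collected from a sucrose gradient of 10% to 50%. This gave 4 groups of 3 libraries, an input and a polysomal group for each of siCtrl and siEIF3G. Both siRNAs were given transiently to a single line, and where the 3 libraries of a group came from is not stated, so p-values measure only the spread between these libraries, which may be technical. The read depth behind each value is unknown, since it cannot be recovered from TPM.

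The large subunit carries the peptidyl transferase centre, where amino acids are joined, and the tunnel through which the new chain leaves the ribosome. Its proteins are needed in equal copy number, except for the acidic stalk proteins, and their mRNAs are among the most abundant in dividing cells. In vertebrates these mRNAs are known as TOP mRNAs: they begin with a C followed by an unbroken run of pyrimidines, the terminal oligopyrimidine tract, through which mTOR signalling and the protein LARP1 regulate their loading onto ribosomes. EIF3G is an RNA-binding subunit of eIF3, the factor that brings mRNA to the small subunit.

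Start sites were read from RefSeq windows on build GRCh38.p14, which were present for 38 of the 45 members. RPL5, RPL7, RPL8, RPL23, RPL23A, RPL30 and RPL37 had none. A start was counted as a pyrimidine start when the annotated first base was C and at least 4 more C or T followed. It was found in 28 of 38 members (73.7%), against 1404 of 27305 genes with a window (5.14%) and 19 of 25 small subunit genes (76.0%). When the start could lie up to 10 bases to either side, 35 of 38 members (92.1%) and 38.4% of all windows had such a run. The starts below belong to members called higher on polysomes than in input (RPLP2, RPL27A) or lower (RPL39, RPL26, RPL31, RPL12, RPL38, RPL41) in control or knockdown cells, and to RPL7A, which passed only relative to the median member in control cells. All 9 carry such a run, but they are a choice from the called members with a window. RPL4 and RPL9, called lower in control cells and not shown, had no run at the annotated base, only within 10 bases of it. Each line gives 15 bases before and 15 bases from the annotated start, 5′ to 3′ on the gene's strand, with the pyrimidine run in capitals.
RPLP2, chr11:809952-809981, plus strand: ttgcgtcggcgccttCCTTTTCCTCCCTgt
RPL27A, chr11:8682777-8682806, plus strand: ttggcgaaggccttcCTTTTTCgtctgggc
RPL7A, chr9:133348203-133348232, plus strand: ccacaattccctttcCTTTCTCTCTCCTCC
RPL39, chrX:119791616-119791645, minus strand: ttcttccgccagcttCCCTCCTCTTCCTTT
RPL26, chr17:8383179-8383208, minus strand: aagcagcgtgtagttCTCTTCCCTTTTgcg
RPL31, chr2:101002274-101002303, plus strand: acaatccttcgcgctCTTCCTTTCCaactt
RPL12, chr9:127451392-127451421, minus strand: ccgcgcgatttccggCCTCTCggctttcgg
RPL38, chr17:74203663-74203692, plus strand: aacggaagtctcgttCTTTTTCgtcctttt
RPL41, chr12:56116618-56116647, plus strand: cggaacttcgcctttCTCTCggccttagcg
The runs of RPL39 (19 bases) and RPL7A (16 bases) went on past the stretch shown. In RPL6, RPL17 and RPL27 no run of 5 that begins with C started within 10 bases of the annotated start. Of these, RPL17 was lower on polysomes in both kinds of cells, and RPL6 was at the low end without passing. RPL27 was above 0 and, like RPL7A, passed only relative to the median member in control cells. RPL17 and RPL27 are shown for contrast, and the RPL17 stretch opens with a pyrimidine run that starts further upstream:
RPL17, chr18:49492451-49492480, minus strand: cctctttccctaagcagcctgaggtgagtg
RPL27, chr17:42998404-42998433, plus strand: ccggggtgaaaggttagcggaagtgtcctt
A run is a match of letters at an annotated start, and whether these cells begin transcription there was not tested.

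EIF3G stood at 1043 ± 147 TPM in siCtrl input, 64.3 ± 19.0 TPM in siEIF3G input, 1800 ± 118 TPM in siCtrl polysomal and 115 ± 39.9 TPM in siEIF3G polysomal RNA (SD, n = 3 each). MTRNR2L2, a transcript that marks the fractions here, stood at 1258 TPM or more in each input library and at 13.1 TPM or less in each polysomal library. Of the cell type markers, VIM, KRT8 and KRT18 were at 107.6 TPM or more in every library, CDH2 was at 0.15 to 6.83 TPM, and CDH1, NKX2-1, SFTPB, PECAM1, COL1A1 and ALB were at 0.31 TPM or less. Over all genes, siCtrl input 1, siEIF3G input 2 and siEIF3G polysomal 3 correlated more closely with the other fraction of their siRNA than with their own group. Over the 45 members alone, each of the 12 libraries correlated more closely with its own group than with the other fraction of its siRNA. Single members shifted in 2 of these libraries: 6 members were more than 2-fold lower in siCtrl input 1 than in the mean of its group's other libraries, led by RPL6, RPL22, RPL4, RPL11 and RPL5, and 8 were in siEIF3G input 2, led by RPL7, RPL6, RPL11, RPL5 and RPL22. Such shifts were not limited to them: 5 members were more than 2-fold higher in siCtrl input 3 (RPL6, RPL22, RPL11, RPL4 and RPL5), 3 in siEIF3G input 3, 2 in siEIF3G input 1, and 1 each in siCtrl input 1 (RPL35) and siCtrl polysomal 1 (RPL4).

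Levels of the members spanned more than 2 orders of magnitude, and their order differed between the fractions. On the TPM scale, which is per transcript length, RPL35 of the exit tunnel rim was highest over the 12 libraries (mean 18222 TPM), followed by RPL8 beside the peptidyl transferase centre (12980.0), the stalk base RPLP0 (8646), RPL9 (6692) and the very small bridge protein RPL41 (6409.8). RPL14 was lowest (87.4), below RPL37 (187), RPL23 (229), RPL22 (233) and RPL27A (262). RPL35 was the highest member in each of the 6 input libraries, and RPL8 in each of the 6 polysomal ones. RPL35 measured 36636, 19554 and 15792 TPM in siCtrl input and 9788, 13187 and 13900.3 TPM in siCtrl polysomal RNA. RPL8 ran the other way, with 12148, 9795 and 7643 TPM in siCtrl input and 14386, 15116 and 14692 TPM in siCtrl polysomal RNA. The 5 most abundant members together held between 40.2% and 43.0% of all member TPM in the group means. Neighbours in the order mostly overlapped: RPL23, RPL22 and RPL27A could not be ordered in input RNA, with RPL23 at 191 to 263 TPM, RPL22 at 123 to 417 and RPL27A at 142 to 222 in siCtrl input. Ribosomal protein genes have many processed pseudogenes, and how reads with several matches were shared out is not given, so the absolute level of a single member is uncertain. RPL17 and RPL36A also share exons with read-through genes, which stood at 2.46 to 24.0 TPM (RPL17-C18orf32) and 1.54 to 6.24 TPM (RPL36A-HNRNPH2).

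**Figure D1:**
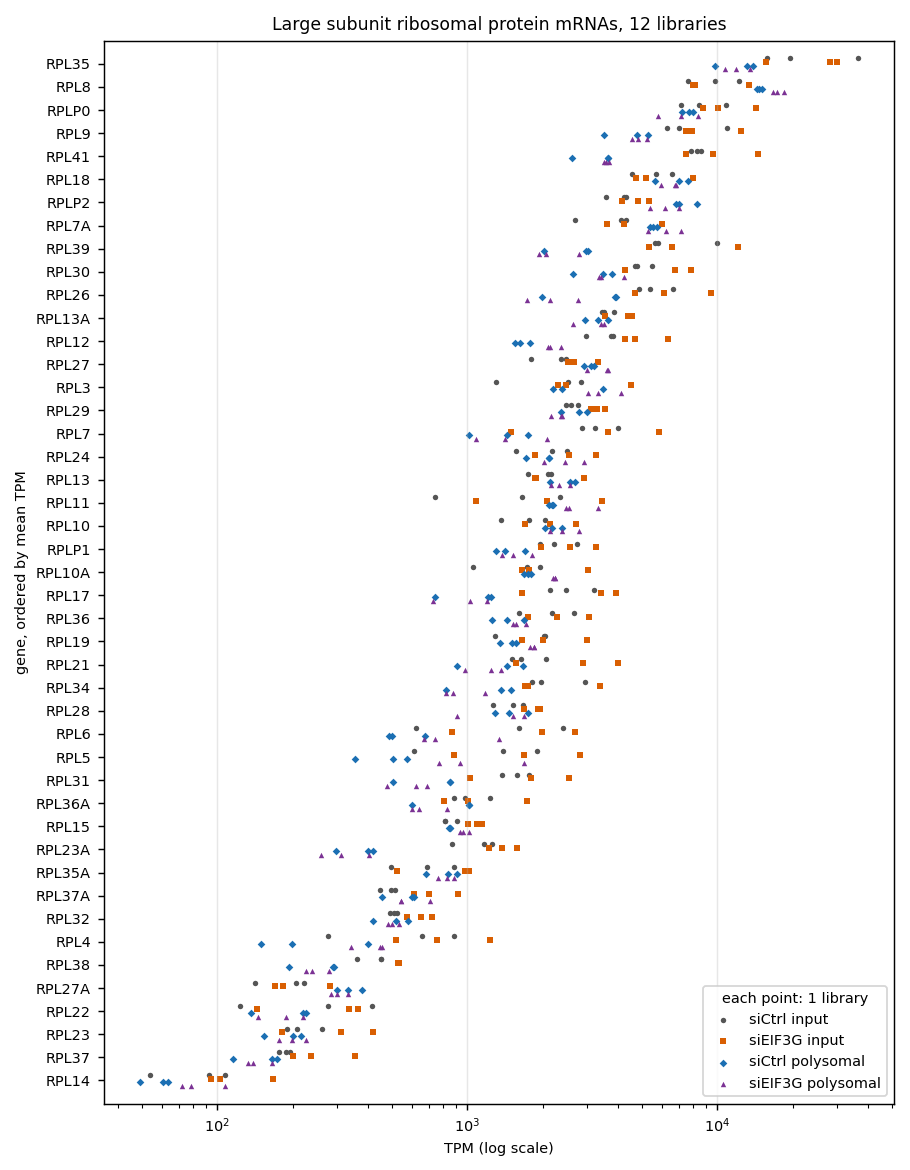
TPM of the 45 large subunit ribosomal protein mRNAs on a logarithmic axis, ordered by the mean over all 12 libraries; each point is 1 library, and colour and shape give the group. RPL35 leads in input and RPL8 in polysomal RNA, RPL14 is lowest, and several members (RPL23A, RPL39, RPL41, RPL12) have their polysomal points clear of their input points.

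Added together, the 45 mRNAs took a larger share of input than of polysomal RNA. Their summed TPM was 16.05%, 13.4% and 13.2% of the library in siCtrl input and 10.1%, 11.8% and 12.2% in siCtrl polysomal RNA. In siEIF3G cells it was 18.1%, 15.99% and 15.7% in input and 12.01%, 11.6% and 11.8% in polysomal RNA. Every input library lay above every polysomal library. Not every member followed the sum. The log2 difference between polysomal and input RNA was above 0 for 16 of 45 members in control and 12 in knockdown cells. In input, the siEIF3G mean of 16.6% ± 1.31 was above the siCtrl mean of 14.2% ± 1.61, but siCtrl input 1 (16.05%) lay among the knockdown libraries. In polysomal RNA the groups overlapped, at 11.4% ± 1.13 for siCtrl and 11.8% ± 0.179 for siEIF3G (SD, n = 3). The sum over the large subunit stayed in step with that over 32 small subunit mRNAs: the ratio was 0.889 ± 0.0347 in siCtrl input, 0.897 ± 0.0530 in siEIF3G input, 0.856 ± 0.0233 in siCtrl polysomal and 0.857 ± 0.0516 in siEIF3G polysomal RNA. TPM are relative values, so a rise or fall of total mRNA cannot be seen in them, and in bulk RNA fewer cells with a transcript and less of it per cell cannot be told apart.

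**Figure D2:**
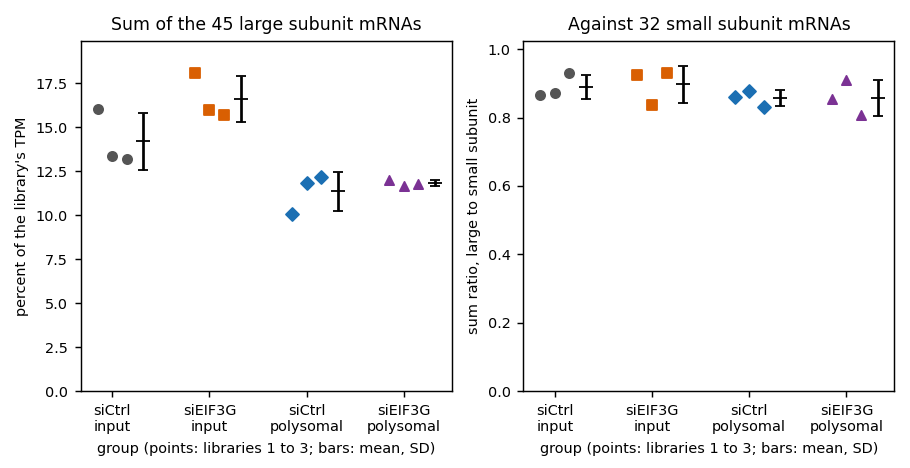
Left, summed TPM of the 45 large subunit mRNAs as a percent of each library; right, that sum divided by the sum over 32 small subunit mRNAs. Points are libraries 1 to 3 of each group, and the black marks are the mean with SD; input libraries lie above polysomal ones on the left (13.2% to 18.1% against 10.1% to 12.2%), and the 4 groups overlap on the right.

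Polysomal against input RNA in control cells shows which of these mRNAs were better or less represented on polysomes than in the lysate. RPLP2 and RPL27A were higher and 14 members were lower, on the log2(TPM + 1) scale with limma and Benjamini-Hochberg adjustment over all genes tested. That is 4.44% higher and 31.1% lower, where 7.98% of all genes were called higher and 28.9% lower, so the share of members called was close to that of genes in general. The median log2 difference of the members was -0.26, and that of all genes was -0.96. Rescaled by median-of-ratios size factors, the median of all genes was -0.04 and that of the members 0.91, with 10 members higher and 0 lower, so the direction of the set as a whole depended on the scaling. Size factors multiply each library by a constant, so they shift the log2 differences of all members by nearly the same amount and keep their order by construction. Quantile normalization gave medians of -0.43 for the members and -0.09 for all genes. It can change the order, and its rank correlation with the deposited scaling across the 45 members was 0.986. Members also had a smaller error than most genes, with a median SE of 0.25 against 0.44. The groups did not overlap for 5 members that were higher and 16 that were lower (11.1% and 35.6%), where 16.9% and 28.9% of all genes did so.

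Within the acidic stalk, which recruits the translation GTPases, the members split. RPLP2 measured 4313, 4214 and 3575 TPM in siCtrl input and 6837, 7003 and 8283 TPM in siCtrl polysomal RNA, so all 3 polysomal libraries were higher, by a log2 difference of 0.87 (SE 0.19, limma adjusted p = 0.0171). RPL12, which sits at the base of the same stalk, fell from 2991, 3739 and 3821 TPM to 1556, 1619.8 and 1779.9 TPM (log2 difference -1.08, SE 0.20, limma adjusted p = 0.00874). RPLP1, the partner that pairs with RPLP2, was lower by a log2 difference of -0.64 (adjusted p = 0.0465), and the scaffold RPLP0 was at -0.18 (adjusted p = 0.512). After the shift by size factors RPL12 and RPLP1 were at 0.09 and 0.53, and RPLP2 was at 2.05.

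The 5S ribonucleoprotein, formed by RPL5 and RPL11 with the 5S rRNA and known for binding MDM2, also divided. RPL5 measured 611, 1393 and 1893 TPM in siCtrl input and 573, 505 and 356 TPM in polysomal RNA, with all polysomal libraries lower (log2 difference -1.32, limma adjusted p = 0.046). RPL11 measured 742, 1652 and 2354 TPM in input and 2183, 2205 and 2112 TPM in polysomal RNA, which overlap (0.61, adjusted p = 0.226). In both genes siCtrl input 1 was the lowest input library. Without the 3 libraries that stood apart, RPL5 was at -1.79 and RPL11 at 0.14.

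Among the 9 proteins that line the peptide exit tunnel or surround its opening, every one was below 0 in control cells, as were 71.2% of all genes. Of the 9, 6 were lower by the test and none higher, where 28.9% of all genes were lower, and their median of -1.13 was close to the -0.96 of all genes. RPL23A, a docking site for the signal recognition particle at the tunnel exit, fell from 871, 1169.7 and 1258 TPM in siCtrl input to 299, 419 and 401 TPM in siCtrl polysomal RNA. This was the lowest value among the members, a log2 difference of -1.55 (SE 0.23, limma adjusted p = 0.00322). RPL39, a small protein of the tunnel wall, fell from 9937, 5602 and 5763 TPM to 2027, 3033 and 2969.9 TPM (-1.38, SE 0.32, adjusted p = 0.0209). Neither gene's groups overlapped. RPL17 and RPL4, whose loops form the narrowest part of the tunnel, were at -1.31 (adjusted p = 0.0264) and -1.24 (adjusted p = 0.0476), and the rim proteins RPL31 and RPL35 at -1.13 (adjusted p = 0.0326) and -0.89 (adjusted p = 0.0473). The groups of RPL4 overlapped, with 402 TPM in siCtrl polysomal 1 and 277 TPM in siCtrl input 1. RPL26 at -0.84 (adjusted p = 0.0511), RPL22 at -0.35 and RPL19 at -0.25 did not pass. After the shift by size factors RPL31 and RPL35 were at 0.05 and 0.29, RPL23A at -0.38, RPL39 at -0.20, RPL17 at -0.13 and RPL4 at -0.07. These 9 genes were grouped by the position of their proteins, not by any feature of their mRNAs.

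Near the peptidyl transferase centre, RPL3, RPL8 and RPL10 were all above 0 in control cells, at 0.32, 0.60 and 0.37, and none passed (lowest limma adjusted p = 0.0529, RPL8). Of the proteins that bridge to the small subunit, RPL41 fell from 8566, 7837 and 8278 TPM in input to 2617, 3639.8 and 3652 TPM in polysomal RNA (-1.33, SE 0.24, adjusted p = 0.00808), with no overlap. RPL30 at -0.60 and RPL24 at -0.05 did not pass. RPL10A of the L1 stalk, which helps release the spent tRNA, was at 0.19 (adjusted p = 0.541).

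Of the other 23 members, RPL27A was higher and RPL7, RPL9, RPL34 and RPL38 were lower. RPL27A rose from 142, 206 and 222 TPM in siCtrl input to 300, 332 and 380.0 TPM in polysomal RNA, a log2 difference of 0.85 (SE 0.25, limma adjusted p = 0.0363), and its groups did not overlap. RPL38, known in the mouse for skeletal patterning, fell from 361, 449.7 and 451 TPM to 193, 289 and 292 TPM (-0.72, adjusted p = 0.0365). RPL7 was at -1.29 (adjusted p = 0.0409), RPL34 at -0.88 (adjusted p = 0.0476) and RPL9 at -0.82 (adjusted p = 0.0409). After the shift by size factors RPL7 was at -0.11, RPL38 at 0.45, RPL34 at 0.29 and RPL9 at 0.36. RPL6, at -1.29 with an SE of 0.49, missed the threshold (adjusted p = 0.0513). Many of these calls depended on which libraries were kept. Only 2 or 3 of the 45 members, all lower, passed without 1 of siCtrl input 2, siCtrl input 3 or a siCtrl polysomal library. Calls over all genes fell in these exclusions too, from 846 higher and 3066 lower to between 130 and 271 in total. The fall was thus not peculiar to the members. Without siEIF3G polysomal 1 it was 7 members and 1098 genes, and without siEIF3G polysomal 2 it was 8 and 1542. Other exclusions did not lower the counts, with 16 members and 7239 genes without siCtrl input 1. Without siEIF3G input 2 it was 22 and 5806, and without the 3 libraries that stood apart it was 20 and 8100. RPL23A and RPL41 each passed in 21 of 22 alternative analyses and RPL12 in 19. The least stable calls were those of RPL34 and RPL35, which passed in 6, and of RPL4 and RPLP1, which passed in 7.

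In knockdown cells the fractions were compared in 6 other libraries of the same fit. Here 8 members were lower on polysomes than in input and 0 higher, which is 17.8% lower, where 1.33% of all genes were called lower and 1.81% higher. RPL12, RPL17, RPL23A, RPL31, RPL38, RPL39 and RPL41 were called in the same direction in control cells, and RPL26 was not. These 7 are 43.8% of the 16 members called in control cells and 87.5% of the 8 called in knockdown cells. As deposited, the member median was -0.52, close to that of all genes (-0.49). With size factors the medians were 0.08 and 0.01, with 0 members called. With quantile normalization they were -0.65 and -0.05, and without the filter on low values the median of all genes was -0.18. How close the set lay to all genes thus depended on the processing. The groups did not overlap for 3 members that were higher and 21 that were lower (6.67% and 46.7%), where 9.40% and 12.7% of all genes did so. The members also spread less within groups. Their median SD over mean was 30.8% in siEIF3G input and 14.2% in siEIF3G polysomal RNA, against 39.7% and 36.6% for all genes. Whether this accounts for the higher share was not tested.

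RPL23A was again the lowest, with 1369.8, 1223 and 1578 TPM in siEIF3G input and 259, 312 and 403 TPM in siEIF3G polysomal RNA (-2.11, SE 0.23, limma adjusted p = 0.000704). RPL39 measured 12085, 6579 and 5346 TPM in input and 1942, 2794 and 2054 TPM in polysomal RNA (-1.75, adjusted p = 0.0132). RPL26 measured 9384, 4665 and 6091 TPM and then 1732, 2759 and 2147 TPM (-1.57, adjusted p = 0.0197). In all 3 genes the polysomal libraries lay below every input library. All 9 exit tunnel genes were below 0 in these cells too, where 69.8% of all genes were. Of the 9, 5 passed the threshold, and their median was -1.50 against -0.49 for all genes. RPL17 was at -1.54 (adjusted p = 0.0268) and RPL31 at -1.50 (adjusted p = 0.0247). RPL41 was at -1.50 (adjusted p = 0.00595), RPL12 at -1.19 (adjusted p = 0.00847) and RPL38 at -1.10 (adjusted p = 0.0174).

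At the other end, RPL8 measured 8008, 13384 and 8148 TPM in siEIF3G input and 18473, 17331 and 16635 TPM in siEIF3G polysomal RNA. The groups did not overlap, and the log2 difference of 0.87 (SE 0.23) had a limma adjusted p of 0.0628. RPL8 passed without the 3 libraries that stood apart (1.15, adjusted p = 0.000546). RPL27A was at 0.57 (adjusted p = 0.226), RPL11 at 0.48 (adjusted p = 0.445) and RPLP2 at 0.38 (adjusted p = 0.271). The number of members called was 2 without siEIF3G polysomal 1, 3 without siEIF3G input 1 or siEIF3G polysomal 2, 5 without siEIF3G input 3, and 13 without siEIF3G input 2 or siCtrl input 1. It was 26 without the 3 libraries that stood apart (2 higher and 24 lower). That is 57.8% of members, against 71.3% of all genes under the same exclusion. Calls over all genes moved too, from 192 higher and 141 lower with every library. In total they were 44 without siEIF3G polysomal 1, 63 without siEIF3G input 1 and 76 without siEIF3G polysomal 2. They were 159 without siEIF3G input 3, 415 without siEIF3G input 2 and 784 without siCtrl input 1.

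**Figure D3:**
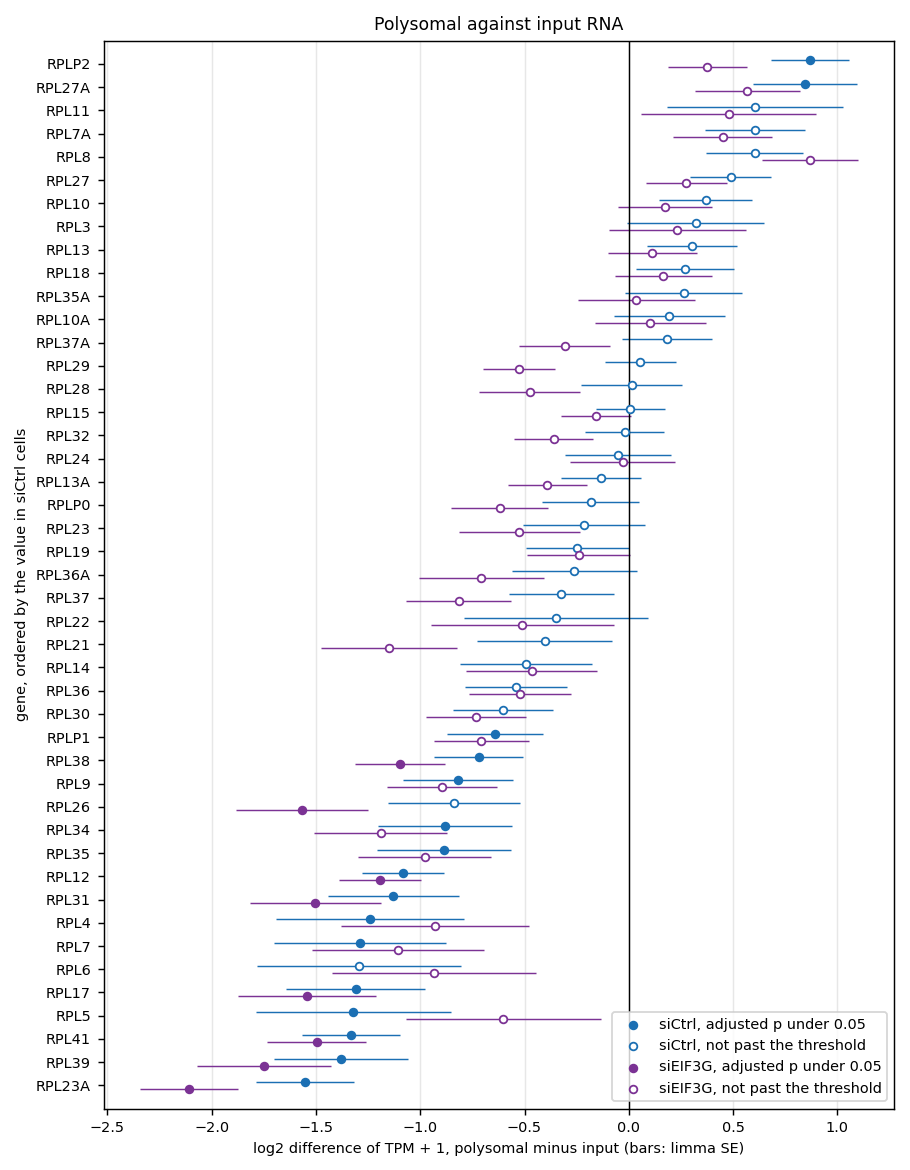
Log2 difference of TPM + 1 between polysomal and input RNA for each of the 45 members, with the limma standard error as bars, in siCtrl cells (blue) and siEIF3G cells (purple); filled points passed an adjusted p of 0.05. Members are ordered by the siCtrl value, from RPL23A (-1.55) to RPLP2 (0.87), and the purple points follow a similar order.

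The order of the members along this axis was alike in control and knockdown cells, which share no library. Across the 45 genes, which are not independent replicates, the log2 differences of the 2 comparisons had a Pearson r of 0.914 and a Spearman rho of 0.925, and 41 of 45 had the same sign. Across all genes tested the Pearson r was 0.899, so this likeness was not peculiar to the members. Level did not order them: the correlation of the log2 difference with the log2 mean TPM was 0.03 in control and 0.05 in knockdown cells. Split by a pyrimidine start at the annotated base, the members overlapped. In control cells the 28 members with such a start had a median of -0.22 (from -1.38 to 0.87). The 10 without had a median of -0.13 (from -1.31 to 0.49). In knockdown cells the medians were -0.51 and -0.30. For siEIF3G against siCtrl they were 0.25 and 0.35 in input RNA. In polysomal RNA they were -0.05 (from -0.52 to 0.56) and 0.25 (from -0.11 to 0.84), which also overlap. All of the 10 but RPL6, RPL17 and RPL27 had a run within 10 bases of the annotated base. The split therefore cannot tell whether a run matters.

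To compare the members with one another, each library was shifted so that its median member had the same value, and the fit was repeated. In control cells RPLP2 (1.18), RPL27A (1.15), RPL7A (0.91), RPL8 (0.91) and RPL27 (0.80) then lay above the median member. RPL23A (-1.25), RPL39 (-1.07), RPL41 (-1.02), RPL17 (-1.002), RPL7 (-0.98) and RPL12 (-0.78) lay below it. These 5 and 6 members are 11.1% and 13.3%, where limma called 10.3% of all genes higher and 23.4% lower on this scale. In knockdown cells RPL8 (1.37) and RPL27A (1.07) were above, and RPL23A (-1.61), RPL39 (-1.25), RPL17 (-1.04) and RPL41 (-0.998) below. That is 4.44% higher and 8.89% lower, against 5.94% and 0.509% of all genes. All 6 were also called in control cells in the same direction, where they are 54.5% of those called. RPL7A, whose protein binds ribosomal RNA, measured 2704, 4123 and 4289 TPM in siCtrl input and 5706, 5351 and 5508 TPM in siCtrl polysomal RNA. RPL27 measured 1805, 2363 and 2484 TPM and then 2919.9, 3119 and 3220.5 TPM. In both, every control polysomal library lay above every control input library. These calls, too, depended on which libraries were kept. In control cells none passed without siCtrl input 2 or siCtrl input 3, and 3, 2 and 1 passed without siCtrl polysomal 1, 2 and 3. It was 6 and 7 without siEIF3G polysomal 1 and 2. In knockdown cells none passed without siEIF3G polysomal 1, 1 without siEIF3G input 1 or siEIF3G polysomal 2, and 2 without siCtrl input 2 or siCtrl polysomal 2 or 3. Leaving out siEIF3G input 3 gave 3, siCtrl input 1 gave 11 and siEIF3G input 2 gave 13. Without the 3 libraries that stood apart, 20 members (44.4%) passed in control cells, against 74.2% of all genes. In knockdown cells 22 members (48.9%) passed, against 45.9% of all genes.

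Knockdown of EIF3G was next compared with control in input RNA, which asks whether the level of these mRNAs changed in the lysate. No member passed the test, against 0.0189% of all genes, and 2 (RPL12 and RPL37A) had an unadjusted limma p under 0.05, as 1.36% of all genes did. The log2 differences were small and mostly of one sign: 42 of 45 were above 0, where 43.0% of all genes were, with a median of 0.31 against -0.05 for all genes. RPL12 measured 2991, 3739 and 3821 TPM in siCtrl input and 4266, 4696 and 6353 TPM in siEIF3G input (0.52, SE 0.20, adjusted p = 1.00). RPL37A measured 448, 497 and 515 TPM and then 704, 612 and 915 TPM (0.59, SE 0.22, adjusted p = 1.00). In both genes the groups did not overlap, and neither difference passed. The groups did not overlap for 9 members that were higher and 0 that were lower (RPL12, RPL15, RPL27, RPL28, RPL29, RPL32, RPL37, RPL37A and RPL38, 20.0%), where 1.88% and 1.80% of all genes did so. The members also spread less within groups. Their median SD over mean was 18.5% in siCtrl input and 30.8% in siEIF3G input, against 51.5% and 39.7% for all genes. Whether this accounts for the higher share was not tested. RPL21, whose groups overlapped, had the highest value, 0.61 (1504, 1637 and 2054 TPM against 3986, 1561 and 2906 TPM), and RPL14 was at 0.53. The lowest were RPL7 (-0.07), RPL34 (-0.02) and RPL8 (-0.02). Relative to all genes the median was 0.36, and it moved to 0.62 without siCtrl input 1 and to 0.11 without siCtrl input 3.

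In polysomal RNA, knockdown against control called 0 members, against 0.0189% of all genes, and 1 member, RPL5, had an unadjusted limma p under 0.05, as 6.69% of all genes did. RPL5 measured 573, 505 and 356 TPM in siCtrl polysomal RNA and 767, 932 and 1685 TPM in siEIF3G polysomal RNA. The groups did not overlap, and the log2 difference of 1.18 (SE 0.47) had an adjusted p of 0.650. Its highest library was siEIF3G polysomal 3, and without that library the value was 0.85. RPL4 (402, 199.5 and 149.7 TPM against 343, 456 and 446 TPM) was at 0.84 and RPL6 at 0.67, both with overlapping groups (SE 0.45 and 0.49). RPL26 was lowest at -0.52, followed by RPL34 (-0.33) and RPL36A (-0.32). Over the members, 25 of 45 were above 0, where 72.7% of all genes were, and the median was 0.08 against 0.33 for all genes. With size factors the members' median was -0.45 and that of all genes -0.03, and with quantile normalization they were 0.12 and 0.01. The groups did not overlap for 8 members that were higher (RPL5, RPL8, RPL10A, RPL11, RPL12, RPL14, RPL15 and RPL19, 17.8%) and for 0 that were lower, where 21.6% and 7.61% of all genes did so. RPL12 and RPL15 were the 2 members whose knockdown libraries lay above control in both fractions. RPL15 measured 908, 814 and 817 TPM in siCtrl input and 1149, 1088 and 1009 TPM in siEIF3G input, then 849, 856 and 845 TPM in siCtrl polysomal and 1012, 961 and 935 TPM in siEIF3G polysomal RNA. Its log2 differences, 0.35 in input (SE 0.17, limma adjusted p = 1.00) and 0.19 in polysomal RNA (SE 0.17, limma adjusted p = 0.664), did not pass, and the latter lay below the median of all genes.

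The difference between these effects, polysomal minus input, asks whether knockdown changed how well a member was represented on polysomes relative to its level. No member passed, and 0% of all genes did. At an unadjusted limma p under 0.05, which 0.179% of all genes reached, was RPL29 alone (-0.58, SE 0.24, limma adjusted p = 0.908). RPL29 measured 2486, 2774 and 2584 TPM in siCtrl input, 3131, 3286 and 3549 TPM in siEIF3G input, 2378, 2804 and 3002 TPM in siCtrl polysomal and 2379.6, 2162 and 2372 TPM in siEIF3G polysomal RNA. It was higher with knockdown in every input library, and in polysomal RNA the groups overlapped. Of the members 9 were above 0 and 36 below, while 73.9% of all genes were above 0. Their median was -0.19 and that of all genes 0.38, a distance of -0.58, and with size factors it was -0.71. With quantile normalization the distance was -0.15. RPL5 (0.72), RPL6 (0.36) and RPL4 (0.31) were highest, and RPL21 (-0.75), RPL26 (-0.73) and RPL29 lowest. With size factors RPL4 and RPL6 were at -0.26 and -0.21. On the scale relative to the median member, 0 members passed in any of the 3 knockdown comparisons by limma (0, 1 and 0 at an unadjusted p under 0.05, which 4.52%, 6.61% and 2% of all genes reached), where 0.0377% of all genes did in input, 0.00943% in polysomal RNA and 0% in the difference.

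**Figure D4:**
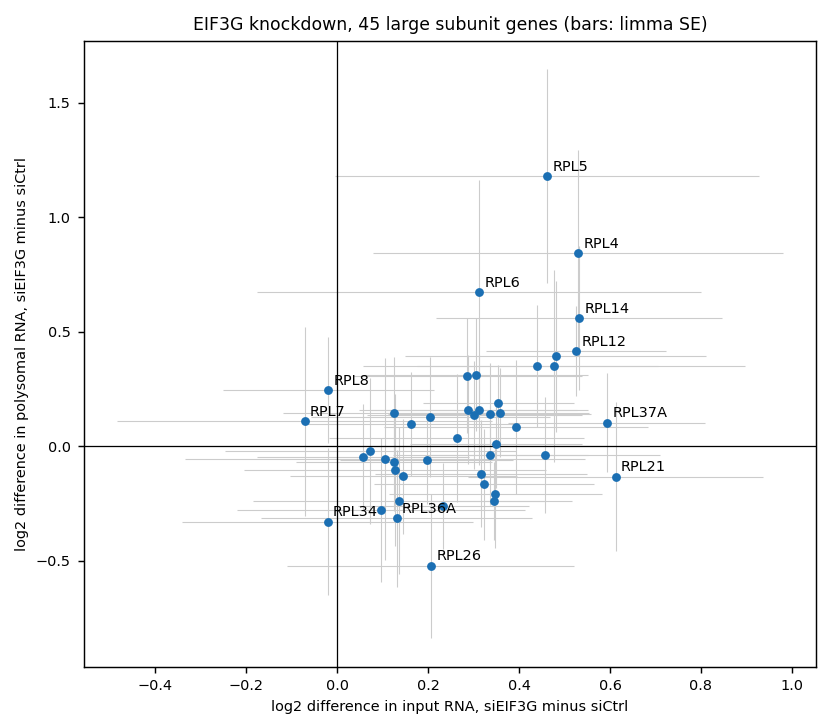
Log2 difference of TPM + 1 between siEIF3G and siCtrl for each of the 45 members, in input RNA (horizontal) and polysomal RNA (vertical), with limma standard errors as grey bars. Most points lie right of 0 (42 of 45) and are spread around 0 vertically (25 of 45 above), and RPL5, RPL4 and RPL6 are highest in polysomal RNA.

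Other genes of the ribosome and its making were set beside the members, from lists chosen by function. For comparison, 7.98% of all genes were called higher and 28.9% lower on polysomes in control cells. In knockdown cells it was 1.81% and 1.33%. The knockdown medians of all genes were -0.05 in input and 0.33 in polysomal RNA, with 43.0% and 72.7% of genes above 0. Of 32 small subunit mRNAs in control cells, RPS3 was higher on polysomes and 6 were lower, with a median of -0.40, from RPS29 (-1.25) to RPS3 (0.86). In knockdown cells 4 were lower and 0 higher, with a median of -0.39. Their knockdown medians were 0.27 in input, with 28 of 32 above 0, and 0.11 in polysomal RNA, near the members' 0.31 and 0.08. The 18 other TOP mRNAs, among them elongation factors, had a knockdown median of 0.77 in polysomal RNA, up to EEF1A1 (1.55), and none passed. In control cells 8 of them were lower on polysomes, with PABPC1 lowest at -3.25. The 42 assembly factors of the large subunit had a knockdown median of 0.81 in polysomal RNA, with 40 of 42 above 0 and none past the threshold, from SENP3 (-0.01) to GTPBP4 (1.84). Of these factors, 13 were lower and 5 higher on polysomes in control cells, and 2 (PPAN and DDX56) were higher in knockdown cells. The 49 mitochondrial large subunit mRNAs had 12 higher and 5 lower in control cells, from MRPL42 (-1.51) to MRPL27 (1.79). Of the paralogs of the members, 5 passed the filter; RPL7L1 and RPL22L1 were lower on polysomes in control cells and RPL22L1 in knockdown cells as well (-1.37, limma adjusted p = 0.0474). RPL22L1, which can take the place of RPL22, measured 69.5, 46.5 and 54.2 TPM in siCtrl input and 18.7, 33.6 and 34.2 TPM in siCtrl polysomal RNA. Among the 9 large subunit genes known from Diamond-Blackfan anaemia, an inherited failure of red cell production, RPL5, RPL31 and RPL35 were lower in control cells and none was higher, near the 28.9% of all genes called lower, and the median was 0.01.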

How the data were processed

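The deposited table gives TPM per gene and library, which the authors computed; per the submitters' processing notes, RSEM 1.3.1 and build GRCh38.p13 were used. The aligner, the annotation and filtering steps were not given in the sources used here. Each library summed to 1000000 over 16172 genes, so read depth is unknown and no counting interval can be given. Genes averaging 1 TPM or more were fitted as log2(TPM + 1) by limma 3.58.1 (R 4.3.3), using 4 group means, a mean-variance trend and 8 residual degrees of freedom. Tests were two-sided. Benjamini-Hochberg adjustment ran over all 10605 genes in each of 5 comparisons, and the threshold was 0.05. The log scale understates changes of low genes. The fit was also run on simulated data with large changes and with independent noise of capped size. That run checks the code and does not measure the power to find differences as small as those of the members. A second fit shifted each library to the same median member.

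The members and the gene lists were chosen with earlier results of these data known. Named were the members past the threshold, the 3 highest and 3 lowest of each comparison, the 5 highest and 5 lowest by level, EIF3G, MTRNR2L2, up to 4 of each role group and the extremes of other lists; members given beside them for contrast were chosen after their values were seen. Alternatives comprised pseudocounts of 0.1 and 5, filters of none and 5 TPM, size factors, quantile normalization, a total without 79 ribosomal protein genes, no trend, a replicate block, each library left out, and the 3 libraries that stood apart left out. The block and the exclusions of libraries in the second fit were added after seeing the data. Groups and replicate numbers came from the labels. Start windows came from RefSeq on GRCh38.p14 and were not combined with coordinates of the deposited build. Protein features were not analysed here, and a few of the genes covered by the naming rule are not reported.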

Additional observations from a re-analysis of the deposited data

How the results depend on the processing

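No member was called in any knockdown comparison under any of the 22 alternatives of the first fit. In control cells, the 16 members called for polysomal against input RNA became 9 with a pseudocount of 5, without the trend or with the replicate block, 7 without the filter and 10 with size factors, where the median turned from -0.26 to 0.91. Leaving out 1 library gave 2 to 22. In knockdown cells, the 8 called became 0 with size factors (median 0.076), 13 with quantile normalization, 4 without the trend, 26 without the 3 libraries that stood apart and 2 to 13 with 1 library left out. The replicate block changed no other count of called members by over 1.5 times, and the labels do not say that a number pairs libraries. Of 12 same-numbered pairs of libraries from different groups, 4 had deviations with r over 0.1 (from -0.69 to 0.71), and in 3 the own number was the best match. Relative to the median member, 1 library left out gave 0 to 16 in control cells, with 6 without siEIF3G polysomal 1. In knockdown cells it gave 0 to 13, with 11 without siCtrl input 1. Without the 3 libraries 20 and 22 members passed (44.4% and 48.9%, against 74.2% and 45.9% of all genes). Size factors moved the knockdown median in polysomal RNA to -0.45 and that of the difference between effects to -0.76. The cause was not tested.

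Signs turned as follows. Size factors shift all genes of a comparison by nearly the same amount, so which signs they turn follows from the deposited values. With them, control values of polysomal against input RNA became 0.092 (RPL12), 0.046 (RPL31), 0.29 (RPL34), 0.29 (RPL35), 0.45 (RPL38), 0.36 (RPL9) and 0.53 (RPLP1), and the difference between effects became -0.26 (RPL4) and -0.21 (RPL6). For knockdown in input, RPL34 was at 0.012 with size factors, 0.0047 with quantile normalization, 0.088 with the total without ribosomal protein genes and 0.35 without the 3 libraries. RPL8 was at 0.014 and 0.089 with size factors and the reduced total. RPL7 was at 0.037 with the reduced total and 0.45 without the 3 libraries. RPL11, for polysomal against input RNA in knockdown cells, was at -0.10 without them. With 1 library left out, knockdown in input ranged from -0.35 to 0.19 (RPL34), -0.51 to 0.47 (RPL7) and -0.26 to 0.14 (RPL8), and the difference between effects from -0.034 to 0.80 (RPL4) and -0.11 to 0.92 (RPL6).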
